A study of Mus musculus with 74 samples.

Results

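Lung tumours whose virus carried 1 guide RNA against Apc and 1 against Lkb1, in either place of the virus, were compared with tumours that carried an Apc or an Lkb1 guide beside an inert guide and with tumours that carried 2 different inert guides (inert/inert). Of 378754 tumours in 74 mice, 2116 were Apc/Lkb1 tumours, 3789 were Apc/inert, 4703 were Lkb1/inert and 2973 were inert/inert. The inert guides were those named safe, NT and EGFP, 5 in all. The pair was selected on the sizes of its tumours in one of the groups, KT_H11_Cas9. Its values against inert/inert, the singles and KT are therefore given as a description with no test. Tests are given in the other groups, among the guides, and for the singles between both Cas9 groups.

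Apc is a tumour suppressor and a scaffold of the complex that marks beta-catenin for destruction, so that its loss switches on Wnt signalling. Lkb1 is the kinase, also named Stk11, that activates AMPK and related kinases, and it is often lost in human lung adenocarcinoma. Wnt signalling controls progenitor growth in the lung, and LKB1 signalling links growth to the energy state of the cell.

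Every mouse was of the KT background, a Cre-activated oncogenic allele with a Tomato reporter, and received a lentiviral pool that carried Cre, a barcode and 2 guides per virus. Lungs were harvested after about 3 months, and 1 library per mouse was made by PCR of the stretch with the barcode and both guides from 32 µg of lung DNA. KT mice (9) had no Cas9, so that guides could not cut and each genotype showed its share of the pool. KT_H11_Cas9 mice (45) carried Cas9 at the H11 locus, and KT_H11_LSL-Cas9 mice (20) carried there a Cas9 behind a stop cassette that Cre removes. The protocol text in the labels lists only LSL forms of Cas9, and the groups here follow the genotype given for each mouse. No strain, age, viral dose or cell type of origin is given in the sources used here, and the table does not tell whether Cas9 cut a gene in a given tumour.

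Tumours per mouse numbered 13191 to 41166 in KT, 1013 to 5364 in KT_H11_Cas9 and 4 to 4941 in KT_H11_LSL-Cas9, and reads per mouse ran from 1434013 to 11183386, from 118601 to 6256147 and from 37 to 1161475. The smallest tumour listed had 50.1 cells. KT_H11_Cas9 replicate 24 stood apart, with 340 of the 2429 tumours of at least 10000 cells of its group. KT_H11_LSL-Cas9 replicate 10 held 79.3% of the cells of Apc/Lkb1 tumours in its group. Several results that rest on these mice are also given without them. The letters that begin the mouse names differed between groups, apart from LA, which KT and KT_H11_Cas9 shared. All KT_H11_LSL-Cas9 mice had letters of their own, so those letters and the genotype cannot be told apart.

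The median Apc/Lkb1 tumour was about the size of the median inert/inert tumour of its group, and the difference lay in the upper tail. The median Apc/Lkb1 tumour had 276 cells in KT, 157 in KT_H11_Cas9 and 151 in KT_H11_LSL-Cas9, against 275, 164 and 164 for inert/inert. At the 90th percentile, Apc/Lkb1 tumours of KT_H11_Cas9 reached 2742 cells, against 900 for Apc/inert, 1115 for Lkb1/inert and 655 for inert/inert. The 95th percentile was 72527 cells for the pair and 2198, 7489 and 1112 for those 3 genotypes. In KT_H11_LSL-Cas9 the pair had 1052 cells at the 90th percentile and 8395 at the 95th, and inert/inert had 604 and 893. There the 95th percentiles of the singles were 2102 for Apc and 1293 for Lkb1. In KT, where no gene could be cut, the 95th percentile was 2882 cells for the pair and 2513 for inert/inert.

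**Figure D1:**
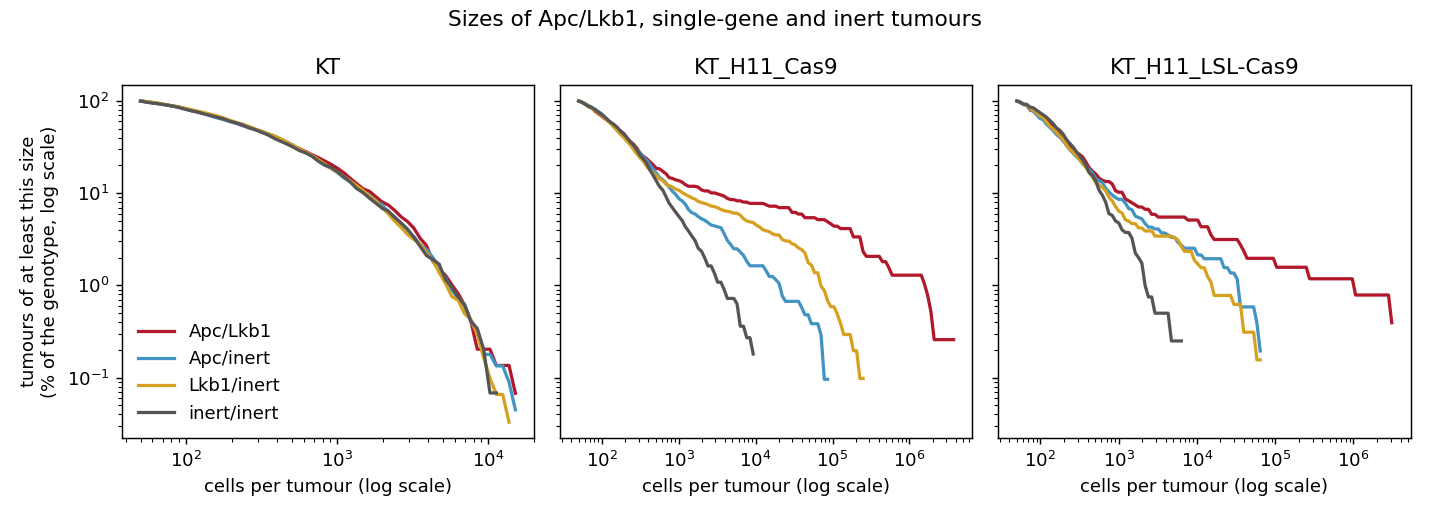
Percent of tumours of each genotype (y axis, log scale) that had at least the number of cells on the x axis (log scale), pooled over the mice of KT, KT_H11_Cas9 and KT_H11_LSL-Cas9. The 4 curves run together in KT, while in both Cas9 groups the Apc/Lkb1 curve leaves the others above about 1000 cells and runs on past 1000000.

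The upper percentiles rested on few mice. In KT_H11_Cas9 the 90th percentile of the pair fell from 2742 to 1516 cells when replicate 24 was left out. Without KT_H11_Cas9 replicate 24, the 95th percentile of the pair fell from 72527 to 27652 cells, the lowest value on leaving out any single mouse, while that of Lkb1/inert went from 7489 to 6259. Without KT_H11_LSL-Cas9 replicate 10, it fell from 8395 to 2550 cells, against 2091 for Apc/inert and 1449 for Lkb1/inert in the same remaining mice. The mean moved too. The pair had a mean of 39169 cells in KT_H11_Cas9, and 29007 without replicate 17, which held its largest tumour. The mean of 30346 cells in KT_H11_LSL-Cas9 became 6840 without replicate 10. The Apc, Lkb1 and inert/inert means were 1000, 2916 and 351 cells in KT_H11_Cas9 and 1133, 839 and 309 in KT_H11_LSL-Cas9.

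Tumours of at least 10000 cells made up 30 of 387 Apc/Lkb1 tumours in KT_H11_Cas9, 7.75% with a Wilson 95% interval of 5.48 to 10.9%, in 18 of 45 mice. The shares of the other genotypes there were 1.63% for Apc (17 of 1041, interval 1.02 to 2.60%) and 4.51% for Lkb1 (46 of 1021, 3.39 to 5.96%). None of 1107 inert/inert tumours reached that size, which allows a share of up to 0.271% by a floor of 3 counts, with a Wilson upper limit of 0.346%. The intervals cover counting error alone and treat tumours of one mouse as independent. Without replicate 24 the share of the pair was 6.12% and that of Lkb1 3.95%. In KT_H11_LSL-Cas9, 13 of 254 Apc/Lkb1 tumours were that large, 5.12% with an interval of 3.02 to 8.56%, in 7 mice. There 12 of 513 Apc tumours (2.34%), 11 of 642 Lkb1 tumours (1.71%) and 0 of 400 inert/inert tumours reached it. The count of 0 allows up to 0.75% by the same floor, with a Wilson upper limit of 0.951%. Without replicate 10 the share of the pair was 3.86%. The KT shares were 0.203% for the pair and 0.0682% for inert/inert. Among these genotypes the pair came first in both Cas9 groups. Lkb1 beside the guide named NE, which was not counted as inert, was higher in KT_H11_LSL-Cas9, with 13 of 195 tumours (6.67%). The interval of the pair overlapped that of Lkb1 with an inert guide in KT_H11_Cas9 and those of both singles in KT_H11_LSL-Cas9. In KT_H11_Cas9 the share of the pair was 10.97% in mice whose spike-ins summed to about 100000 cells and 5.60% in those of about 300000. The singles were also higher at 100000, with 2.51% for Apc and 5.78% for Lkb1. At 300000 they were 0.843% and 2.62% in mice with letters LA, and 0% and 5.11% in those with letters CM. Whether both totals yield cell numbers on 1 scale was not tested.

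**Figure D2:**
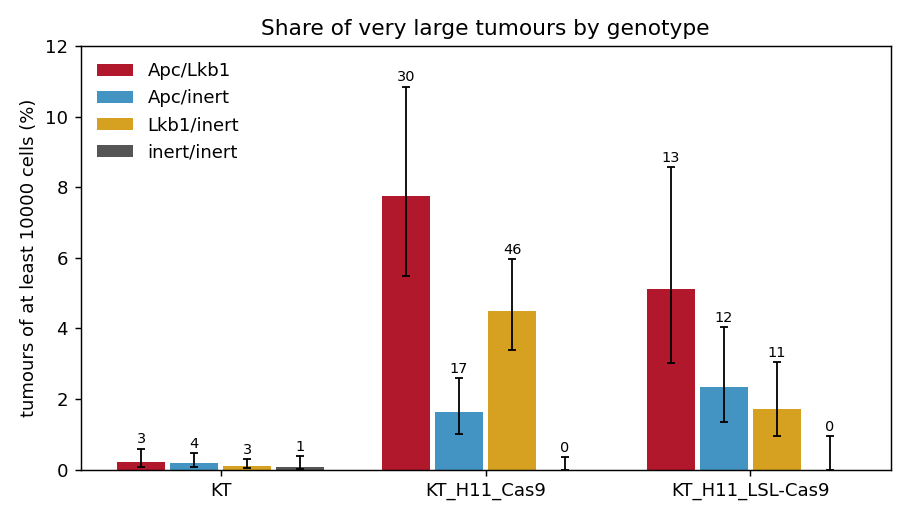
Percent of tumours with at least 10000 cells (y axis) by genotype in each mouse group, with bars pooled over mice, Wilson 95% intervals, and the number of such tumours above each bar. Apc/Lkb1 stands at 7.75% in KT_H11_Cas9 and 5.12% in KT_H11_LSL-Cas9, and no inert/inert tumour reached the size in either.

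Sizes past 100000 cells set the pair further apart from its singles. Of all tumours, 587 of 119856 (0.490%) reached 100000 cells in KT_H11_Cas9 and 171 of 49792 (0.343%) in KT_H11_LSL-Cas9. In KT_H11_Cas9, 17 of 387 Apc/Lkb1 tumours (4.39%) in 12 mice did, or 14 without replicate 24, against 6 Lkb1/inert tumours and no Apc/inert tumour. In KT_H11_LSL-Cas9, 4 of 254 Apc/Lkb1 tumours (1.57%) in 3 mice did, or 2 without replicate 10. No tumour of either gene beside a safe, NT or EGFP guide did there. The largest Apc/Lkb1 tumours had 4104168 cells in KT_H11_Cas9 replicate 17 and 3232238 in KT_H11_LSL-Cas9 replicate 10. The largest Lkb1/inert tumour had 254848 cells and the largest Apc/inert tumour 90582, both in KT_H11_Cas9. Beside the guide named NE, which was not counted as inert, the largest tumours were 454502 (KT_H11_Cas9) and 364611 cells (KT_H11_LSL-Cas9) with Apc, and 168861 and 509687 with Lkb1. Of the 43 tumours past 1000000 cells in KT_H11_Cas9, 5 were Apc/Lkb1 tumours in 5 different mice, and of the 7 in KT_H11_LSL-Cas9, 3 were, in 2 mice. An Apc/Lkb1 tumour was the largest of all tumours in 4 KT_H11_Cas9 mice and 1 KT_H11_LSL-Cas9 mouse, and it was among the 10 largest in 12 and 5 mice.

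The cells of the pair were therefore held by a small number of tumours. In KT_H11_Cas9, Apc/Lkb1 tumours were 0.323% of tumours and 3.66% of cells, and 99.1% of those cells lay in tumours of at least 10000 cells. In KT_H11_LSL-Cas9 they were 0.510% of tumours and 8.29% of cells, or 2.03% of cells without replicate 10. In KT the shares were 0.705% of tumours and 0.737% of cells. At the other end, 32.0% of Apc/Lkb1 tumours in KT_H11_Cas9 and 33.1% in KT_H11_LSL-Cas9 had under 100 cells, against 17.4% in KT. Small tumours were more common among inert/inert tumours of the Cas9 groups too. The 25th percentile of inert/inert was 92.1 cells in KT_H11_Cas9, 98.3 in KT_H11_LSL-Cas9 and 122 in KT. For the pair it was 83.6, 88.8 and 122.

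Mean log2 size was then compared within each mouse, over mice with at least 5 tumours of each genotype. In the 34 such KT_H11_Cas9 mice, the pair minus inert/inert was lowest at -1.07, with a median of 0.48 and a highest value of 5.11. It was above 0 in 20 mice and below in 14, and the mean was 0.63 ± 0.22 (SE, n = 34), a fold of 1.55 of the geometric mean. With log2 of the mean cells per mouse it was 2.89. Adaptive sampling takes the largest tumours of a genotype up to a number set by the pool and the inert/inert tumours of the mouse. With it the difference turned to -0.26. Mice with fewer Apc/Lkb1 tumours than that number kept all of them, against only the largest inert/inert tumours. That value therefore mixes tumour number with size. Apc alone stood at 0.16 ± 0.07 and Lkb1 alone at 0.27 ± 0.09 (SE, n = 45). This ranked the pair 5 of 106 gene pairs, of which 35.8% were called larger by the sign-flip permutation test at an adjusted p under 0.05, a share given for reference because this contrast chose the pair.

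In KT_H11_LSL-Cas9, where the size of the pair was tested, the difference did not pass. Over 17 mice it ran from -1.04 to 1.83 with a median of -0.042, above 0 in 8 mice and below in 9. The mean was 0.20 ± 0.20 (SE, n = 17), with an adjusted p of 0.799 by the sign-flip permutation test over all pairs, of which 2.73% were called larger. The singles were at 0.018 ± 0.089 for Apc and -0.051 ± 0.089 for Lkb1. The mice with letters HC and MT went apart, at 0.39 ± 0.26 (SE, n = 12) and -0.25 ± 0.25 (SE, n = 5). All 13 tumours of at least 10000 cells were in HC mice, among 169 Apc/Lkb1 tumours, and none of 85 in MT mice was that large, although 6 Apc and 5 Lkb1 tumours there were. In KT the pair differed from inert/inert by 0.036 ± 0.066 (SE, n = 9), with an exact sign-flip adjusted p of 0.926, and 0% of pairs were called by that test (5 of 134 at an unadjusted p under 0.05).

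**Figure D3:**
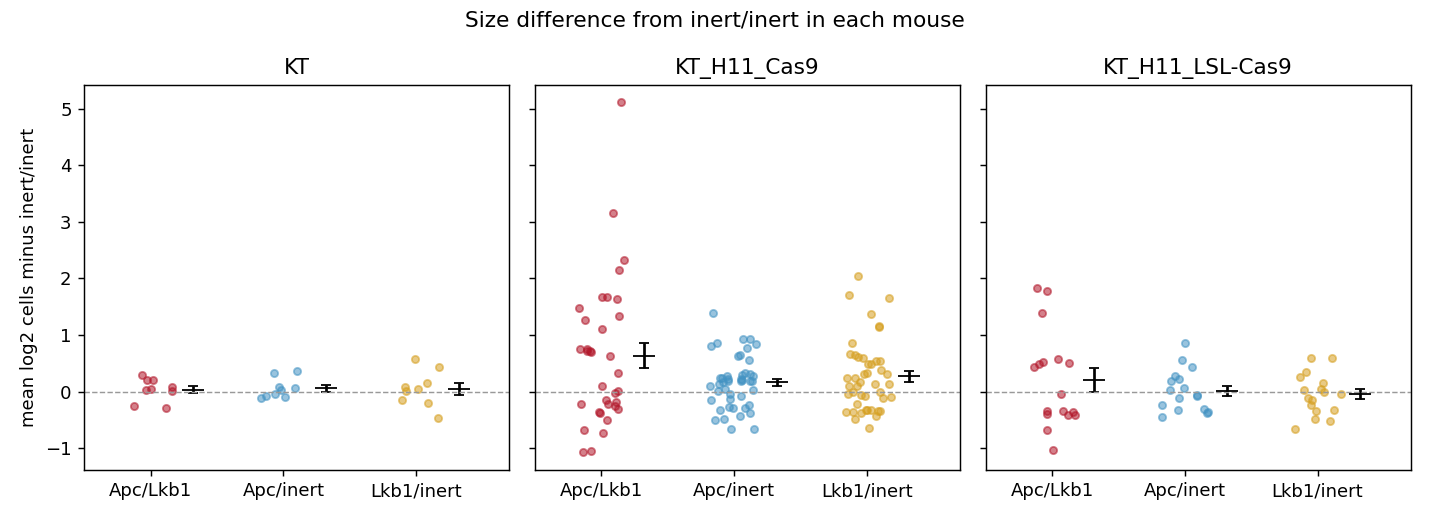
Mean log2 cells of Apc/Lkb1, Apc/inert and Lkb1/inert tumours minus that of inert/inert tumours (y axis) in each mouse with at least 5 tumours of both genotypes (points), with the mean and SE over mice (black). The KT_H11_Cas9 points of the pair reach from -1.07 to 5.11, and those of KT_H11_LSL-Cas9 lie on both sides of 0.

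Adding the second gene was read as a step from each single gene. From Apc to the pair, KT_H11_Cas9 mice differed by 0.51 ± 0.20 and from Lkb1 to the pair by 0.40 ± 0.22 (SE, n = 34). In KT_H11_LSL-Cas9 those steps were 0.19 ± 0.22 and 0.25 ± 0.19 (SE, n = 17), with sign-flip permutation adjusted p of 0.897 and 0.706. Of all steps in that group, 1.84% were called larger. Neither step in that group differed from 0 beyond the spread between mice.

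The interaction was the effect of the pair minus the sum of both single effects in the same mouse. It was 0.28 ± 0.21 (SE, n = 34) in KT_H11_Cas9, where it ran from -2.13 to 2.54 and the median over all pairs was -0.21. In KT_H11_LSL-Cas9 it was 0.24 ± 0.23 (SE, n = 17), above 0 in 11 mice, with a sign-flip permutation adjusted p of 0.942. There 0% of pairs were called by that test, and 5 of 107 had an unadjusted p under 0.05. On the log2 scale the pair was thus within the mouse-to-mouse spread of the sum of its singles in the tested group.

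The share of large tumours asked how many tumours of a genotype passed the 90th percentile of the inert/inert tumours of their own mouse. In KT_H11_Cas9 it was 18.8% for the pair and 11.3% for inert/inert, a difference of 7.56 ± 2.83 percentage points (SE, n = 34), above 0 in 23 mice, while Apc and Lkb1 differed by 4.55 ± 1.55 and 3.48 ± 1.47 points (SE, n = 45). In KT_H11_LSL-Cas9 it was 14.8% against 11.7%, a difference of 3.15 ± 2.56 points (SE, n = 17) with a sign-flip permutation adjusted p of 0.720, and 0.909% of pairs were called larger. With a fixed size of 10000 cells, chosen after the data were seen, the difference in KT_H11_LSL-Cas9 was 4.92 ± 1.93 points (SE, n = 17), with an adjusted p of 0.0610 by the same permutation test. In KT the difference past the 90th percentile of inert/inert was 1.22 ± 0.86 points (SE, n = 9), with an exact sign-flip adjusted p of 0.925.

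Apc/Lkb1 tumours were fewer in Cas9 mice than their share of the pool. Per mouse, number was read as log2 of Apc/Lkb1 over inert/inert tumours, each plus 0.5. In KT it ran from -0.22 to 0.28 with a median of 0.012. KT_H11_Cas9 mice ran from -2.76 to 1.06 with a median of -1.58, and 44 of 45 lay below the lowest KT mouse. The difference from KT was -1.57 ± 0.12 (SE), a fold of 0.337, against -0.67 ± 0.07 for Apc and -1.19 ± 0.09 for Lkb1. Of all pairs in that group, 47.1% were called fewer.

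The same comparison was tested in KT_H11_LSL-Cas9, over the 17 mice with at least 5 inert/inert tumours. They ran from -1.29 to 0.16 with a median of -0.57, and 14 lay below the lowest KT mouse. The difference from KT was -0.62 ± 0.11 (SE), a fold of 0.649, with an adjusted p of 0.00252 by permutation of mouse labels, and 19.1% of the 136 pairs were called fewer. Lkb1 alone fell by 0.39 ± 0.10 on the log2 scale with a permutation adjusted p of 0.0343, and Apc alone was at -0.22 ± 0.11 with 0.236, where 17.6% of single genes were called fewer. The call for the pair held on leaving out any one mouse. Against only the 4 KT mice of the same spike-in total (300000) it was -0.58 with a permutation adjusted p of 0.0812, with tumours of at least 500 cells alone it was -0.36 with 0.692, and with at least 1000 cells it turned to 0.35 with 0.641. The smallest tumour listed per mouse had 50.4 to 56.2 cells in KT, 50.1 to 105 in KT_H11_Cas9 and 50.4 to 369 in KT_H11_LSL-Cas9. Fewer tumours and more tumours below that minimum cannot be told apart.

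The interaction in number, log2 of the pair minus both singles against KT, was 0.29 ± 0.12 (SE) in KT_H11_Cas9 and -0.016 ± 0.16 in KT_H11_LSL-Cas9, where the permutation adjusted p was 0.996. In the second group 0% of pairs were called by that test, and 5 of 136 had an unadjusted p under 0.05.

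**Figure D4:**
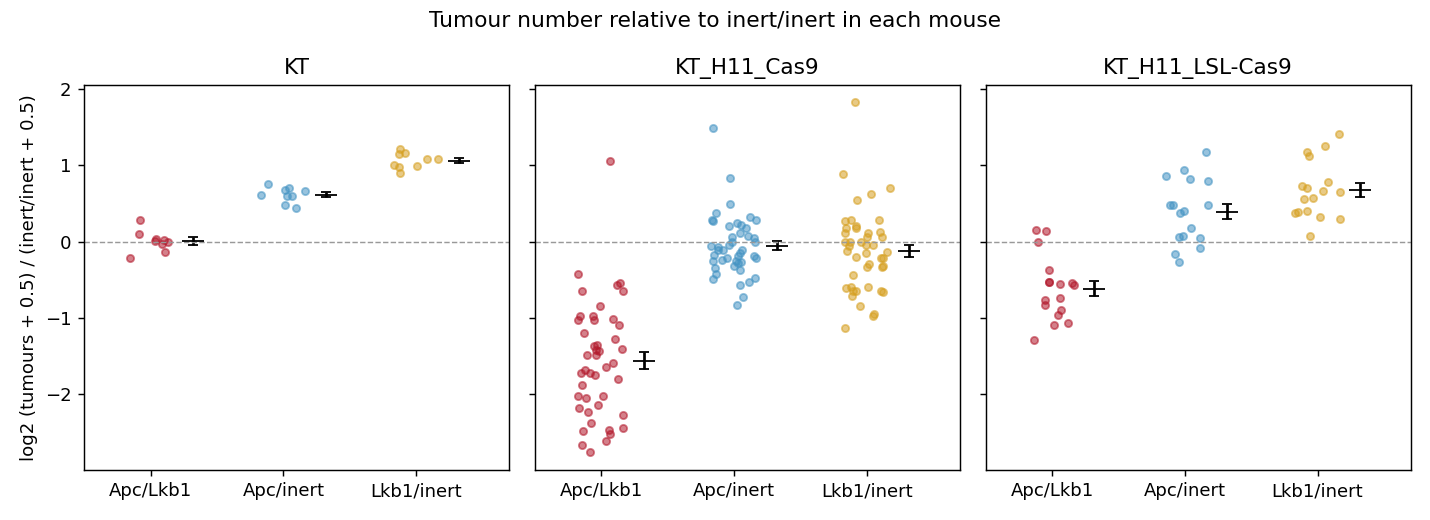
Tumour number of a genotype over that of inert/inert, each with 0.5 added, on a log2 scale (y axis) in each mouse (points), with the mean and SE over mice (black), for Apc/Lkb1, Apc/inert and Lkb1/inert. The Apc/Lkb1 points lie around 0 in KT, around a median of -1.58 in KT_H11_Cas9 and between -1.29 and 0.16 in KT_H11_LSL-Cas9.

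Size and number were also read together, as tumours past a size per 100 tumours that the KT share of the pool and the inert/inert number of the group would give. Of tumours of all sizes, the pair had 34.7 per 100 in KT_H11_Cas9, against 61.7 for Apc and 44.5 for Lkb1. At 1000 cells or more the genotypes came together, with 4.76 for the pair, 5.51 for Apc, 4.79 for Lkb1 and 5.60 for inert/inert. At 10000 cells or more the pair had 2.69 (2.12 to 2.82 on leaving out each mouse), Lkb1 2.00 (1.75 to 2.08), Apc 1.01 (0.850 to 1.04) and inert/inert 0. At 100000 cells or more it had 1.53 and Lkb1 0.261. The pair was thus the lowest of the 4 genotypes with no size minimum and the highest at 10000 cells or more. It was already highest at 2000 cells or more, with 3.77 against 3.485 for Lkb1, 3.20 for Apc and 2.35 for inert/inert.

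In KT_H11_LSL-Cas9 the pair had 63.1 per 100 at all sizes, against 84.1 for Apc and 77.4 for Lkb1. At 1000 cells or more the values were 6.46, 7.22 and 4.94, with 4.75 for inert/inert. At 10000 cells or more they were 3.23 (2.35 to 3.66 on leaving out each mouse), 1.97 (1.60 to 2.16) and 1.33 (0.974 to 1.45). As in KT_H11_Cas9, the pair was lowest of the 3 with no size minimum and highest at 10000 cells or more. At 2000 cells or more it had 4.47, against 4.43 for Apc and 3.13 for Lkb1. These are values pooled over mice and have no test.

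Each gene had 2 guides, named V1 and V2, so 8 constructs (guide choice and order) made up the pair. They held 33 to 69 tumours each in KT_H11_Cas9, 12 to 42 in KT_H11_LSL-Cas9 and 112 to 255 in KT. All 8 were fewer over inert/inert than in KT, at 0.213 to 0.437 of the KT value in KT_H11_Cas9 and 0.393 to 0.707 in KT_H11_LSL-Cas9. The lowest in KT_H11_Cas9 was Lkb1_V1 in place 1 with Apc_V2 in place 2, and the highest was Lkb1_V2 with Apc_V2. All 8 gave tumours of at least 10000 cells in KT_H11_Cas9 (2 to 6 each), and 7 of 8 did in KT_H11_LSL-Cas9. The exception was Apc_V2 in place 1 with Lkb1_V1, which had 0 of 38.

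**Figure D5:**
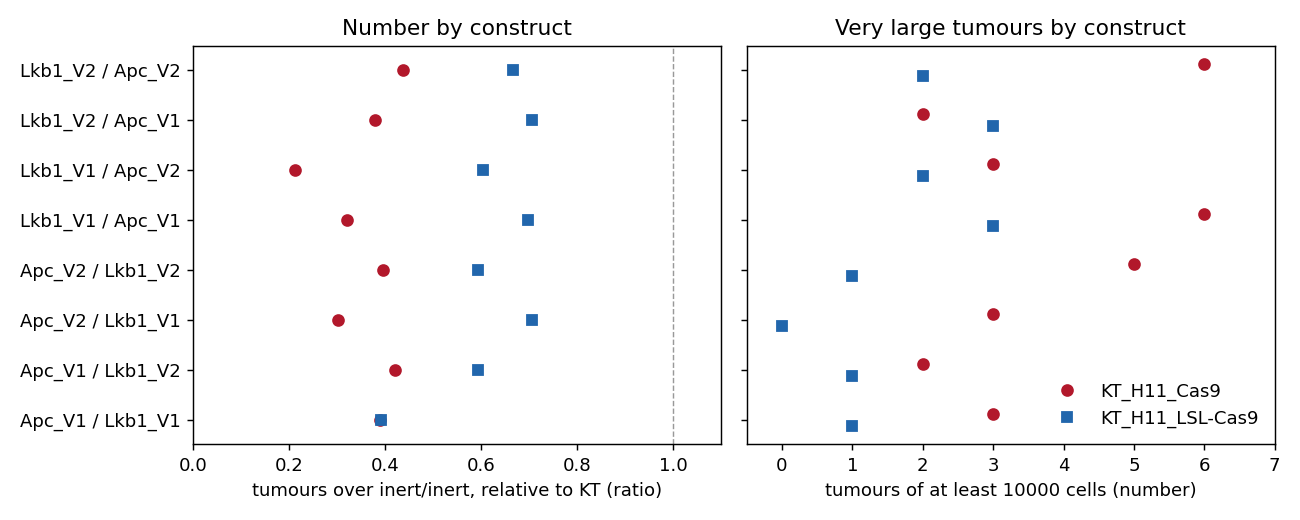
The 8 Apc/Lkb1 constructs (y axis, guide in place 1 / guide in place 2), with their tumours over inert/inert relative to KT (left x axis, ratio, dashed line at the KT value of 1) and their number of tumours of at least 10000 cells (right x axis), in KT_H11_Cas9 (circles) and KT_H11_LSL-Cas9 (squares). All ratios lie below 1, from 0.213 to 0.437 and from 0.393 to 0.707, and large tumours are spread over the constructs.

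The 2 guides of a gene also differed in number on their own. Beside an inert guide in KT_H11_Cas9, Apc_V1 stood at 0.834 of its KT number and Apc_V2 at 0.490, and Lkb1_V1 at 0.305 and Lkb1_V2 at 0.609. In KT_H11_LSL-Cas9 they were at 0.979, 0.761, 0.721 and 0.836. Within both groups Apc_V2 and Lkb1_V1 were thus the lower guide of their gene, with no test of the difference.

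Among Apc/Lkb1 tumours, guide order and choice were compared in mean log2 cells within mice with at least 3 tumours of both kinds. In KT_H11_Cas9, Apc in place 1 minus place 2 was 0.15 ± 0.29 (SE, n = 26), Apc_V1 minus V2 was -0.0032 ± 0.39 (SE, n = 22) and Lkb1_V1 minus V2 was 0.55 ± 0.34 (SE, n = 26). Their sign-flip permutation adjusted p were 0.920, 0.993 and 0.337. In KT_H11_LSL-Cas9 the same differences were -0.27 ± 0.30 (SE, n = 16), 0.38 ± 0.43 (SE, n = 14) and 0.23 ± 0.43 (SE, n = 14), with permutation adjusted p of 0.648, 0.648 and 0.685. None passed in either Cas9 group. In KT, where the guides could not cut, Lkb1_V1 minus V2 was 0.27 ± 0.07 (SE, n = 9), from -0.042 to 0.59 with a median of 0.29 and above 0 in 7 mice, with an exact sign-flip adjusted p of 0.0469. Beside an inert guide, the same guides differed in KT by 0.030 ± 0.054 (SE, n = 9).

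Among the other pairs that hold Apc or Lkb1, those with Lkb1 had the higher upper percentiles, with no test of the difference. In KT_H11_Cas9 the 95th percentile had a median of 2915 cells over the 15 other Apc pairs and of 6960 over the 15 other Lkb1 pairs, with highest values of 10564 and 29316, and all 136 pairs had a median of 1931. The 72527 cells of Apc/Lkb1 were the highest of the 136 with all mice in. Without replicate 24 the value was 27652, below the 29316 of the highest other Lkb1 pair with all mice. The latter value includes replicate 24, so the rank of Apc/Lkb1 without that mouse cannot be read from it. The share of tumours of at least 10000 cells had a median of 4.95% over the other Lkb1 pairs. It reached 6.74% among them, against 7.75% for Apc/Lkb1. In KT_H11_LSL-Cas9 the 8395 cells of Apc/Lkb1 ranked 3 of 136, and the same 2 kinds of pairs had medians of 1242 and 2199. Without replicate 10 the value of Apc/Lkb1 was 2550, and values of the other pairs without that mouse are not given. The share of at least 10000 cells there reached 5.93% among the other Lkb1 pairs, above the 5.12% of Apc/Lkb1. Tumours of at least 100000 cells were not particular to Apc/Lkb1. In KT_H11_Cas9 the other Lkb1 pairs held 121 and the other Apc pairs 73, against 17 for Apc/Lkb1. In KT_H11_LSL-Cas9 they held 34 and 24, against 4. These are counts, not shares of the tumours of those pairs.

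Rnf43, a ubiquitin ligase that removes Wnt receptors from the cell surface, was the other gene of the Wnt list. Apc/Rnf43 tumours differed from inert/inert by 0.10 ± 0.08 (SE, n = 45) in KT_H11_Cas9 and -0.06 ± 0.11 (SE, n = 17) in KT_H11_LSL-Cas9. Lkb1/Rnf43 tumours differed by 0.22 ± 0.08 (SE, n = 45) and -0.0049 ± 0.15 (SE, n = 17). Of Lkb1/Rnf43 tumours 36 of 781 (4.61%) reached 10000 cells in KT_H11_Cas9, near the 4.51% of Lkb1 with an inert guide, and of Apc/Rnf43 tumours 7 of 767 (0.913%) did.

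At the ends of the size effects among pairs with Apc or Lkb1, the histone methyltransferase genes Kmt2a and Kmt2b appeared, each on few mice. Another pair at the high end is not reported here. Apc/Kmt2a stood at 0.64 ± 0.53 (SE, n = 6) in KT_H11_Cas9, close to the value of Apc/Lkb1, with 4 of 103 tumours of at least 10000 cells. In KT_H11_LSL-Cas9 too few mice held 5 of its tumours. Lkb1/Kmt2b was lowest at -0.47 ± 0.42 (SE, n = 4), but 6 of its 93 tumours (6.45%) reached 10000 cells, and it stood at 0.58 ± 0.36 (SE, n = 5) in KT_H11_LSL-Cas9. Apc with Ccnl1, a cyclin L gene, was at -0.37 ± 0.15 (SE, n = 4) and 0.17 ± 0.20 (SE, n = 4).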

How the data were processed

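The deposited table gave, for each tumour, the mouse, the guide in both places, the reads and the cells. The read column holds counts that the authors deposited without normalization. The cell column is a signal that the authors deposited, the cells estimated from spike-in barcodes, and within each mouse it was the reads times 1 factor, as checked on the values. The spike-in entries of a mouse summed to about 100000 or 300000 cells. Of the steps that led to the table, no tool or version is given in the sources used here. Of 379042 entries, 288 with a spike-in were left out, as were 6757 tumours with the same guide in both places. Median cells behind 1 read were 4.82 in KT, 7.96 in KT_H11_Cas9 and 12.9 in KT_H11_LSL-Cas9, so small tumours are coarse estimates, most of all in the last.

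Mice were the replicates. Size differences were tested by 2-sided sign flips over mice (exact under 10 mice, otherwise 100000 resamples), and numbers and differences between Cas9 groups by 100000 permutations of mouse labels. The p-values were adjusted by the Benjamini-Hochberg method over all pairs, steps or singles of a group, or over the guide comparisons of a group, with a call under 0.05. Floors for a count of 0 are 3 counts of the total. Pairs named beside Apc/Lkb1 came from the Wnt list and, of those with Apc or Lkb1, the 2 highest and 2 lowest size effects in KT_H11_Cas9. A pair among the 2 highest is not reported here. The members and lists were chosen with earlier results of these data known. Some results are not reported here. The alternatives changed the size minimum, the size statistic, the inert guides, the mice and the pseudocount, and the tests were tried on simulated data. Scripts ran in Python 3.11.15 (numpy 2.4.6, scipy 1.17.1, pandas 2.3.3), and plots were drawn with matplotlib 3.10.9.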

Additional observations from a re-analysis of the deposited data

Results flagged for a closer look

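The numbers of tumours over inert/inert differed between the Cas9 groups. KT_H11_Cas9 minus KT_H11_LSL-Cas9 was -0.95 ± 0.15 (SE, log2) for Apc/Lkb1, given with no test because the pair was selected in KT_H11_Cas9. It was -0.45 ± 0.12 for Apc alone and -0.80 ± 0.12 for Lkb1 alone. Their adjusted p were 0.00123 and 1e-04 by permutation of mouse labels over 10 comparisons. The interaction in number differed by 0.30 ± 0.18, and the size of the pair minus inert/inert by 0.43 ± 0.30. The sizes of the singles differed by 0.14 ± 0.11 for Apc and 0.32 ± 0.13 for Lkb1, with permutation adjusted p of 0.361 and 0.126. The genotype and the letters of the mouse names cannot be told apart here.

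Tumours with the guide named NE, which entered none of the comparisons reported other than the alternative that counts NE as inert, also held large tumours beside Apc or Lkb1. Of Apc tumours with NE, 12 of 302 (3.97%) in KT_H11_Cas9 and 3 of 156 (1.92%) in KT_H11_LSL-Cas9 had at least 10000 cells. Of Lkb1 tumours with NE, 12 of 260 (4.62%) and 13 of 195 (6.67%) did. The KT_H11_LSL-Cas9 share of Lkb1 with NE was above the 5.12% of Apc/Lkb1 in that group. In KT the shares were 0.132% and 0.104%, and with NE beside an inert guide they were 0.491% in KT_H11_Cas9 and 0.529% in KT_H11_LSL-Cas9.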

How the results depend on the processing

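The KT_H11_Cas9 values of the pair kept their direction on leaving out each mouse, with size at 0.50 to 0.69 and number at -1.63 to -1.53, and the KT_H11_LSL-Cas9 number stayed called in each such fit, at -0.67 to -0.58. No setting made the KT_H11_LSL-Cas9 size, steps, share or interaction pass, and the lowest adjusted p of the size was 0.0667 (exact sign-flip permutation, tumours of at least 200 cells, n = 9). The interaction in number there ran from -0.11 to 0.060 on leaving out each mouse. With at least 500 cells, KT_H11_Cas9 size was 4.49, the step from Apc 2.94 and the share difference 55.4 points on 2 or 3 mice, and number in KT_H11_LSL-Cas9 was -0.36, no longer called. With at least 1000 cells number was -0.32 in KT_H11_Cas9 and turned to 0.35 in KT_H11_LSL-Cas9. The interaction in number of that group turned to 0.31, 0.49 and 0.038 with at least 200, 500 and 1000 cells and to 0.021 with a pseudocount of 1. With log2 of the mean cells, KT_H11_Cas9 size was 2.89 and its step from Apc 2.07, and the KT_H11_LSL-Cas9 interaction in size was -0.011. With the median, KT_H11_LSL-Cas9 size was -0.14. Adaptive sampling turned size to -0.26 in KT_H11_Cas9 and -0.15 in KT_H11_LSL-Cas9, and the step from Apc there to -0.21. It takes the largest tumours up to a number set by the pool and the inert/inert tumours of the mouse. It thus mixes number with size where a mouse had too few Apc/Lkb1 tumours to select from. In MT mice alone, size, both steps and the interaction were -0.25, -0.28, -0.22 and -0.25, and 0% of the pair reached 10000 cells. In KT, size was -0.015 with NE counted as inert and -0.032 in mice of spike-in total 300000, where the share difference was -0.085 points, and it was -0.54 points at 500 cells. Mice of that total gave -0.58 for KT_H11_LSL-Cas9 number, not called, and KT_H11_Cas9 mice of total 100000 gave 10.97% of the pair at 10000 cells, against 5.60% in those of total 300000. With at least 2 tumours of both kinds, guide order in KT_H11_Cas9 was -0.029. Sizes of at least 1000 cells left too few mice for the size tests. The causes of these shifts were not tested. No paired analysis was possible because replicate numbers came from accession order and mice were not shared between groups. That limit concerns comparisons between groups only. Within a group, the size, step, interaction, share and guide differences were taken inside each mouse.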
